A study of Homo sapiens with 12 samples.

Results

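The 10 transcripts described here are long non-coding RNAs (lncRNAs) chosen by symbol: MALAT1 and NEAT1, which stay in the nucleus, and GAS5, SNHG1, SNHG5, SNHG8, SNHG12, SNHG15, ZFAS1 and EPB41L4A-AS1, which carry small nucleolar RNAs (snoRNAs) in their introns. All 10 of the 10 were found among the 59424 gene identifiers of each deposited table. Poly(A)-selected RNA was sequenced from 2 prostate cancer cell lines in which GALNT7, a Golgi enzyme of mucin-type O-glycosylation, had been lowered or raised with lentivirus. CWR22Rv1, a line grown from a prostate cancer xenograft, carried either a control short hairpin RNA (shControl, n = 3) or one against GALNT7 (GALNT7 KD, n = 3). DU145, a line from a metastasis of prostate cancer, carried either an open-reading-frame control virus (OE control, n = 3) or GALNT7 (GALNT7 OE, n = 3). All 12 libraries were thus from stably transduced lines, labelled as biological replicates, and whether a line is a clone or a pool is not given in the sources used here.

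MALAT1 lies at nuclear speckles, where splicing factors collect, and NEAT1 is the scaffold RNA of paraspeckles, nuclear bodies built on it by RNA-binding proteins. Both are unusual among RNA polymerase II transcripts in that RNase P, the ribozyme that trims transfer RNAs, cuts their 3′ end, which is then held by a triple helix of the RNA itself rather than by an added poly(A) tail. The snoRNA host genes work in another way: their introns release snoRNAs, which guide the methylation and pseudouridylation of ribosomal RNA, while the spliced exons are often removed by nonsense-mediated decay when ribosomes read them. Many host genes begin with a run of pyrimidines at the cap, the terminal oligopyrimidine (5′TOP) element shared with ribosomal protein genes.

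The 3′ ends of MALAT1 and of the long NEAT1 isoform are printed because poly(A) selection can hold these RNAs only through stretches of A such as these. The letters end at the RNase P cut, on the plus strand of chromosome 11 in GRCh38 (GENCODE transcripts), at chr11:65506037-65506116 for MALAT1 and chr11:65445461-65445540 for NEAT1. Capitals mark the 16 letters and the 11 letters that the ends share, which include the U-rich and A-rich parts of the triple helix.
MALAT1: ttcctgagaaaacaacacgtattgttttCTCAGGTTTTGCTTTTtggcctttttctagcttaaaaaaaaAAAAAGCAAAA
NEAT1: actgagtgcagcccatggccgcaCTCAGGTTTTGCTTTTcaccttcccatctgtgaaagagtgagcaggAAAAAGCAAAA
The mascRNA, a transfer RNA-like piece of 57 bases that the cut releases from MALAT1, begins at the next base (chr11:65506117-65506173). It was at 0 in all 12 libraries.
mascRNA: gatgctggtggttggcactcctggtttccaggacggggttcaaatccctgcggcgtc

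The starts of the host genes are printed because a 5′TOP element, where a gene has it, begins at the first base. RefSeq windows (GRCh38.p14) were held for 8 of the 10 lncRNAs, 7 of them hosts. Each line runs from 20 bases before the gene's start to its base 50, and capitals mark the tract nearest to the start, where a tract is a C followed by at least 4 letters that are each C or T. The letters were searched on the transcribed strand alone, since the element is a feature of the RNA.
GAS5, chr1:173868996-173869065, minus strand: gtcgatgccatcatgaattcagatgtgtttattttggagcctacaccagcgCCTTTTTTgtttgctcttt
SNHG1, chr11:62855836-62855905, minus strand: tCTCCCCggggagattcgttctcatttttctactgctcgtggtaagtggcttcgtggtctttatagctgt
SNHG5, chr6:85678684-85678753, minus strand: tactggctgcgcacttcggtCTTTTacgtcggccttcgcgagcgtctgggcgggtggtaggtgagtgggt
SNHG8, chr4:118278742-118278811, plus strand: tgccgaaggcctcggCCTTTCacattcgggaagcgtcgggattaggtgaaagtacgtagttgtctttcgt
SNHG12, chr1:28581824-28581893, minus strand: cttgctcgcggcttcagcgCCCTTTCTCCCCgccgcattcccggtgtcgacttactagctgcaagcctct
ZFAS1, chr20:49278622-49278691, plus strand: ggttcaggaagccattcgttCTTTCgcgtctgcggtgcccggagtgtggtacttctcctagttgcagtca
EPB41L4A-AS1, chr5:112160506-112160575, plus strand: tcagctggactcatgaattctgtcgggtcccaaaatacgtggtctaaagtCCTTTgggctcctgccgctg
A tract covered the first base in 4 of these 7 hosts, SNHG5, SNHG8, SNHG12 and ZFAS1, against 7.87% of the 35116 windows of 300 bases. In SNHG5 and ZFAS1 it began at the first base itself, as in 1.26% of all windows. The tract of SNHG8 began at -5 from the start and has 6 letters, so only its last letter lies in the RNA. That of SNHG12 began at -1, and the tract marked in SNHG1, at -19, lies wholly before the start. In GAS5 the nearest tract began at base 32 after the listed start and in EPB41L4A-AS1 at base 31. The GENCODE starts, used for distances to neighbours, lie outside the printed lines of GAS5, SNHG1, SNHG8, SNHG12 and ZFAS1. For GAS5 that start is chr1:173868882. Tracts at the GENCODE starts were not looked for. Among the 4 hosts with a tract over the first base, SNHG8 passed the test in CWR22Rv1 and SNHG5 in DU145. SNHG12 and ZFAS1 passed in neither line.

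Values are normalised read counts, that is reads divided by a size factor of the library. GALNT7 itself was at 862, 1042 and 1093 in shControl libraries and at 481, 501 and 399.7 in GALNT7 KD libraries. It was at 1051, 928 and 913 in OE control libraries and at 1988, 2221 and 2334 in GALNT7 OE libraries, so that the groups did not overlap in either line. Whole reads recovered from the values summed to between 18364512 and 24356910 per library. Of 8 markers of prostate epithelium, 8 passed the count filter in CWR22Rv1 and 5 in DU145, with the keratins KRT8 and KRT18 high in both lines. Of 6 markers of other cell types, 2 passed in CWR22Rv1 and 3 in DU145, and the T cell gene CD3E was at 0 in all 12 libraries. Their summed count was between 62.3 and 94.6 in shControl, between 49.1 and 74.4 in GALNT7 KD, between 303 and 430 in OE control and between 70.2 and 165 in GALNT7 OE libraries. In DU145 most of it was the collagen gene COL1A1, at 334 ± 73.6 in OE control and 90.6 ± 55.4 in GALNT7 OE libraries (SD, n = 3), which was lower with GALNT7 OE by limma (log2 difference -2.01, adjusted p = 0.00591), and its part in the results was not tested. The tables of the cell lines were scaled separately, so tests were run within a line only and no difference between the lines was tested.

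Each lncRNA was tested with limma on log2(normalised count + 1) across all genes with a mean count of at least 5 (17906 genes in CWR22Rv1 and 18705 in DU145), and p-values were adjusted by Benjamini-Hochberg against a threshold of 0.05. All 10 lncRNAs passed the filter in both lines. In CWR22Rv1, 1 of the 10 passed the test after knockdown, SNHG8, which was lower, against 9.06% of all genes tested (5.28% higher and 3.79% lower). In DU145, 6 of the 10 passed after overexpression, against 43.5% of all genes tested (22.9% higher and 20.5% lower): NEAT1, MALAT1, GAS5 and EPB41L4A-AS1 were lower, and SNHG1 and SNHG5 were higher. The share in CWR22Rv1 (10%) was near that of all genes, and the share in DU145 (60%) was read against a background that was itself high.

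**Figure D1:**
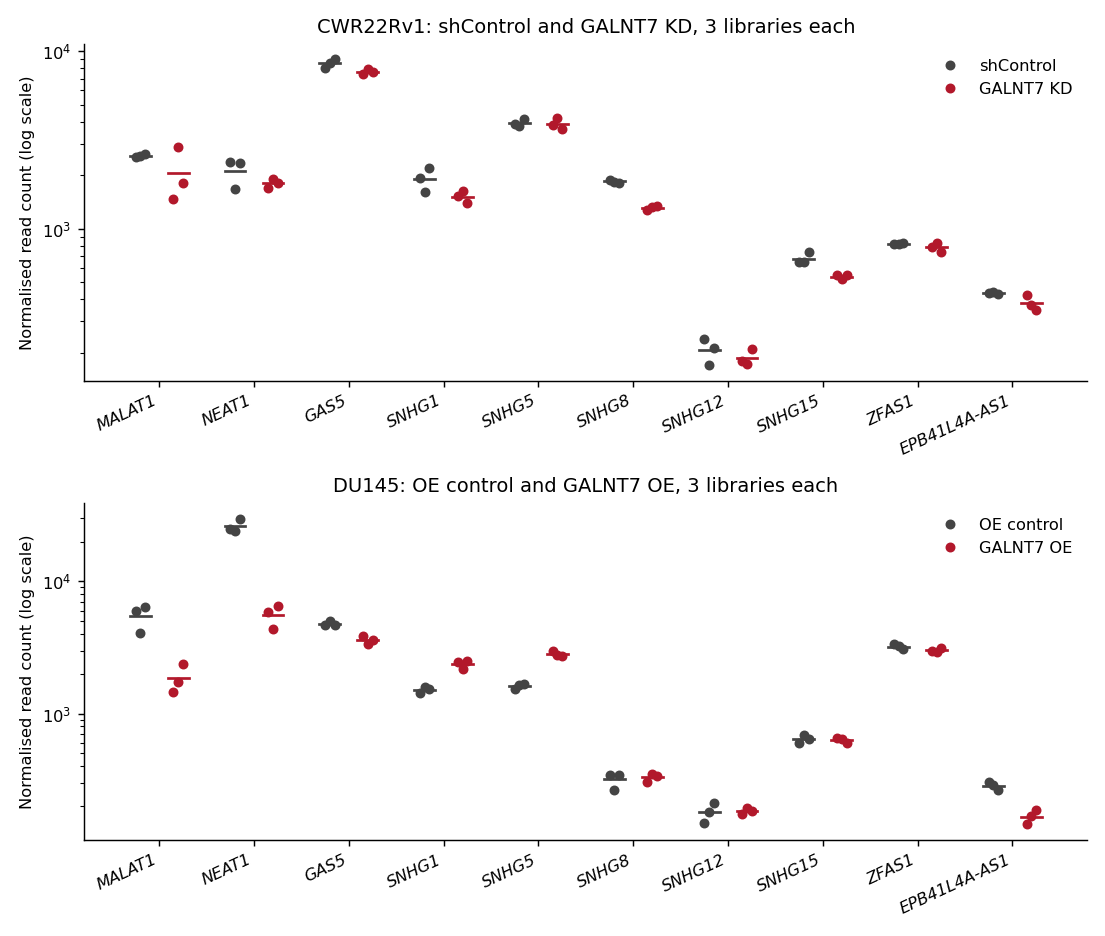
Normalised read count of each lncRNA in every library on a log axis, with CWR22Rv1 above and DU145 below. Grey points are the 3 control libraries, red points the 3 GALNT7 KD or GALNT7 OE libraries, and bars their means. The groups do not overlap for GAS5, SNHG8, SNHG15 and EPB41L4A-AS1 in CWR22Rv1, and for NEAT1, MALAT1, GAS5, SNHG1, SNHG5 and EPB41L4A-AS1 in DU145.

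NEAT1, the paraspeckle scaffold, was the lncRNA that differed most. In DU145 it was at 24774, 23991 and 29858 in OE control libraries and at 5907, 4375 and 6498 in GALNT7 OE libraries. Every GALNT7 OE library was below every control library, and the mean was lower by 78.7% (log2 difference -2.24, SE 0.15, adjusted p = 5.95e-05). NEAT1 took between 0.108% and 0.134% of all reads in the control libraries, and between 0.0194% and 0.0285% in the GALNT7 OE libraries. In CWR22Rv1 the NEAT1 count was 2363, 1668 and 2340.3 in shControl libraries and 1687, 1906 and 1817 in GALNT7 KD libraries. The groups overlapped (log2 difference -0.22, SE 0.14, adjusted p = 0.375). Leaving out shControl replicate 2, the lowest of the controls, moved the difference to -0.38 with an adjusted p of 0.0490. Leaving out shControl replicate 1 instead moved it to -0.13 with an adjusted p of 0.677.

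The NEAT1 gene occupies chr11:65422774-65445540 and is a single unspliced unit of 22767 bases in its long form, which shares its first part with short polyadenylated isoforms. The deposited table is by gene, so the isoforms could not be separated over the whole locus. It did hold separate entries for 3 conserved pieces of 105 to 159 bases inside that shared first part. In DU145 all 3 were lower with GALNT7 OE: RF01955 by -2.51, RF01956 by -2.28 and RF01957 by -2.27 on the log2 scale (adjusted p = 0.000618, 0.000125 and 6.08e-05). Their reads and those of NEAT1 come from the same RNA, so they are no independent measurement of it. In CWR22Rv1 none of the 3 passed the test, with log2 differences from -0.57 to 0.14.

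MALAT1, which starts 74914 bases after NEAT1 on the same strand (chr11:65497688-65506516), was at 6003, 4044 and 6361 in OE control libraries and at 1447, 1746 and 2378 in GALNT7 OE libraries. The groups did not overlap, although both varied more between replicates than the host genes did, with coefficients of variation of 22.8% and 25.6%. The mean was lower by 66.0% with GALNT7 OE (log2 difference -1.56, SE 0.23, adjusted p = 0.00163). In CWR22Rv1 MALAT1 was at 2528, 2559 and 2648 in shControl libraries and at 1466, 2874 and 1806 in GALNT7 KD libraries. Replicate 2 of GALNT7 KD was above every control and the other two were below them, so the groups overlapped (log2 difference -0.39, SE 0.23, adjusted p = 0.325). Without that library the difference was -0.66 with an adjusted p of 0.0246. Without GALNT7 KD replicate 1 instead it was -0.18 with an adjusted p of 0.644.

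The transcripts of paraspeckle proteins were described with a list of 22 genes, all tested. In DU145 16 were higher and 3 lower with GALNT7 OE, where 22.9% of all genes tested were higher and 20.5% lower, with a median log2 difference of 0.44 beside -0.01 over all genes. RBMX, an RNA-binding protein, went from a mean of 3012 ± 87.4 (SD, n = 3) to 6018 ± 163, a log2 difference of 1.00 (adjusted p = 9.53e-06). HNRNPH3 rose by 0.98 on the same scale. SFPQ and NONO, on which paraspeckles depend, rose by 0.60 and 0.23, whereas the third protein of that family, PSPC1, had a difference of 0.15 that did not pass. CIRBP, SMARCA4 and UBAP2L were the members that fell. In CWR22Rv1, 6 of the 22 were lower with GALNT7 KD and 0 higher (3.79% and 5.28% of all genes tested). Their median was -0.13 over the 22, and HNRNPH3 fell by 0.38, PSPC1 by 0.35 and HNRNPA1 by 0.28. The call of PSPC1 was lost under 6 of 17 alternative fits, among them the block on replicate number. The 6 went down to between 2 and 4 with a library left out (2 without shControl replicate 1 or 2), to 3 with the replicate block and to 1 without the trend, with 0 higher in each. At an unadjusted p under 0.05, 9 of the 22 were lower and 0 higher by limma, beside 4675 of 17906 genes in either direction. DESeq2 called 7 lower and 0 higher, beside 2587 of the 31023 genes fitted.

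Of 12 genes of nuclear speckle proteins, 6 were higher and 1 lower in DU145 with GALNT7 OE (22.9% and 20.5% of all genes tested), with a median log2 difference of 0.25. Under quantile or 75th percentile scaling the counts were 4 higher and 2 lower. SRSF3 and SRSF1, splicing factors of the serine and arginine-rich family, rose by 1.15 and 0.80. SRRM2, a structural protein of the speckle, fell by 0.41 (adjusted p = 0.00484), from 11404 ± 1073 to 8597 ± 504. In CWR22Rv1 2 of the 12 were lower with GALNT7 KD and 0 higher (3.79% and 5.28% of all genes tested). SRSF1 and SRSF2 fell by 0.29 and 0.27. Both calls were lost under the replicate block, and between 0 and 1 of the 12 passed with a library left out. At an unadjusted p under 0.05, 6 were lower and 0 higher by limma, beside 4675 of 17906 genes in either direction. DESeq2 called 5 lower and 0 higher, beside 2587 of the 31023 genes fitted.

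RNase P makes the 3′ ends shown above, and 13 of the 16 listed genes for its subunits and for transfer RNA 3′ processing could be tested. In DU145 9 were higher with GALNT7 OE and 0 lower (22.9% and 20.5% of all genes tested), with a median log2 difference of 0.37. At an unadjusted p under 0.05 the limma counts were also 9 and 0, beside 9677 of 18705 genes in either direction. DESeq2 called 9 higher and 0 lower, beside 7993 of the 31464 genes fitted. RPP40 rose by 0.86, RPP14 by 0.62 and ELAC2, the nuclease that trims transfer RNA 3′ ends, by 0.59. In CWR22Rv1 2 of the 13 were higher with GALNT7 KD and 0 lower by limma (5.28% and 3.79% of all genes tested). POP1 and RPP25 rose by 0.61 and 0.57, calls that were lost under 6 and 8 of 17 alternatives. At an unadjusted p under 0.05, 3 were higher and 2 lower by limma, beside 4675 of 17906 genes in either direction. DESeq2 called 2 higher and 0 lower, beside 2587 of the 31023 genes fitted. With a library left out between 0 and 1 passed, and the 1 that passed without GALNT7 KD replicate 3 was lower. RPPH1, the RNA subunit, was at 0 in every library but 1 GALNT7 OE library, where it was at 6.29. The entry AL355075.4, which spans RPPH1 on the same strand, was at 16537, 14212 and 18335 in GALNT7 KD libraries and between 12.1 and 20.1 in shControl libraries. In DU145 it was at 33400.3, 32841 and 33328 in OE control libraries and between 8.39 and 18.0 in GALNT7 OE libraries. It was thus high in 1 group of each line, and its part in the values of MALAT1 and NEAT1 was not tested.

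The region around NEAT1 and MALAT1 was looked at after their values were known. In DU145, 21 other genes with starts within 250 kb of the NEAT1 start were tested, and 11 of them (52.4%) were lower with GALNT7 OE and 1 was higher, where 20.5% of all genes tested were lower. LTBP3, a binding protein of latent TGF-beta, fell by 1.58, from 4949 to 1662 (adjusted p = 1.03e-05). FAM89B fell by 0.85 and SLC25A45 by 0.71. FRMD8, the protein-coding gene whose start is nearest to NEAT1 at 36175 bases, fell by 0.60 (adjusted p = 0.0243). The call of FRMD8 was lost under 6 of 17 alternative fits. POLA2, the primase-associated subunit of DNA polymerase alpha, rose by 0.94. NEAT1 itself lay below all 21, and MALAT1 below all but LTBP3. In CWR22Rv1, 0 of 20 genes in the window passed the limma test with GALNT7 KD, against 9.06% of all genes tested. At an unadjusted p under 0.05 there were 6 by limma, beside 4675 of 17906 genes. DESeq2 called 2 higher and 1 lower, beside 2587 of the 31023 genes fitted.

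**Figure D2:**
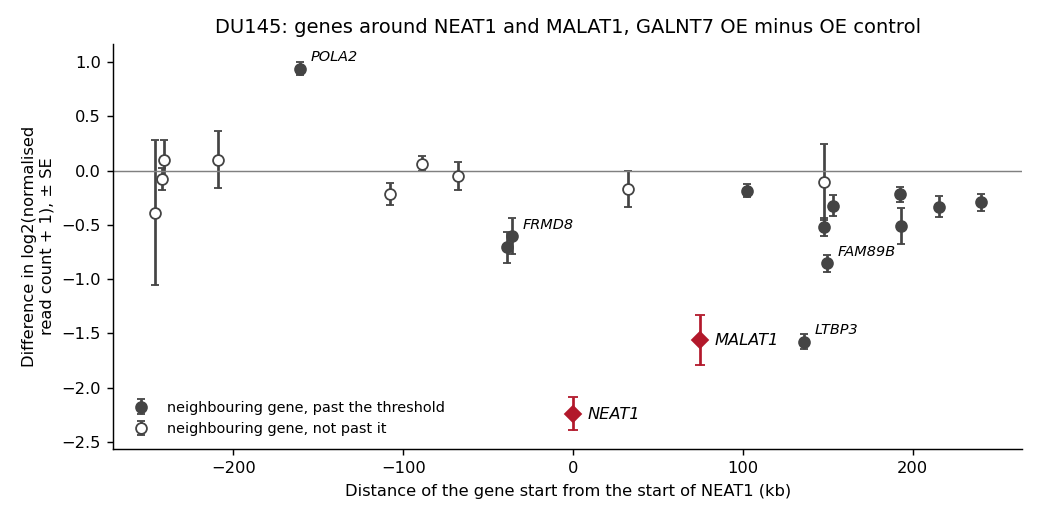
Log2 difference between GALNT7 OE and OE control in DU145 (vertical axis, with SE) against the distance of each gene's start from that of NEAT1 in kb. Filled points passed the test, open points did not, and red diamonds are NEAT1 and MALAT1. NEAT1 at -2.24 is the lowest point, LTBP3 and MALAT1 follow at -1.58 and -1.56, and POLA2 is the filled point above 0.

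GAS5, a host of C/D box snoRNAs whose spliced RNA collects in cells that stop growing, was the most abundant host in CWR22Rv1. It was at 8082, 8622 and 8995 in shControl libraries and at 7447, 7897 and 7602 in GALNT7 KD libraries. All 3 GALNT7 KD libraries were below the controls, but the difference of -0.16 (SE 0.051) did not pass over all genes (adjusted p = 0.0967). DESeq2 gave it an adjusted p of 0.0483. Without the trend, limma gave 0.259. In DU145 GAS5 was at 4650.25, 4974 and 4685 in OE control libraries and at 3891, 3359 and 3610.3 in GALNT7 OE libraries. The groups did not overlap and the mean was lower by 24.1% (log2 difference -0.40, SE 0.063, adjusted p = 0.00243).

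SNHG1, which hosts a row of box C/D snoRNAs, was at 1438, 1577 and 1548 in OE control libraries. It was at 2456, 2187 and 2499.5 in GALNT7 OE libraries, above all controls. The mean was higher by 56.5% (log2 difference 0.64, SE 0.071, adjusted p = 0.000469). In CWR22Rv1 it was at 1934, 1603 and 2192 in shControl and at 1522, 1624 and 1393 in GALNT7 KD libraries. These groups overlapped through shControl replicate 2 (log2 difference -0.33, SE 0.12, adjusted p = 0.15).

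SNHG5, host of SNORD50 snoRNAs, was at 1548, 1657 and 1685 in OE control libraries and at 2952, 2793 and 2737 in GALNT7 OE libraries. The groups were far apart and the mean was higher by 73.4% (log2 difference 0.79, SE 0.057, adjusted p = 7.57e-05). In CWR22Rv1 it was at 3876, 3793 and 4138 in shControl libraries and at 3837, 4225 and 3635 in GALNT7 KD libraries. The values were interleaved (log2 difference -0.02, SE 0.069, adjusted p = 0.920), and the sign changed when either of 2 libraries was left out.

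SNHG8, host of SNORA24, was the lncRNA that passed in CWR22Rv1. It was at 1889, 1836 and 1816 in shControl libraries and at 1270.4, 1321 and 1336 in GALNT7 KD libraries. The 2 groups were each tight and did not overlap, and the mean was lower by 29.1% with GALNT7 KD (log2 difference -0.50, SE 0.055, adjusted p = 0.00430). The call held under all 18 alternatives. In DU145 it was at 344, 266 and 345 in OE control libraries and at 306, 348 and 339 in GALNT7 OE libraries. The groups overlapped (log2 difference 0.07, SE 0.13, adjusted p = 0.714).

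EPB41L4A-AS1, host of SNORA13, was at 303, 286 and 267 in OE control libraries and at 145, 167 and 186 in GALNT7 OE libraries. The mean was lower by 41.8%, with no overlap (log2 difference -0.78, SE 0.12, adjusted p = 0.00242). In CWR22Rv1 it was at 436, 439 and 428 in shControl libraries and at 421, 371 and 348 in GALNT7 KD libraries. The groups did not overlap there either, but the difference of -0.20 (SE 0.098) did not pass (adjusted p = 0.261). EPB41L4A, which runs against it and shares 1659 exonic bases, was at a mean of 388 in OE control and 198 in GALNT7 OE libraries (log2 difference -0.96, adjusted p = 0.0572). The kit marks strand, but whether strand was used in counting is not given in the sources used here, so reads of this pair may not be fully separated.

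SNHG15, host of SNORA9 and known as a short-lived RNA, was at 644, 647 and 741 in shControl libraries and at 544, 521 and 544 in GALNT7 KD libraries. These did not overlap, and the difference of -0.33 (SE 0.086) had an adjusted p of 0.0596. DESeq2 gave 0.0194. In DU145 SNHG15 was between 597 and 690.3 in OE control and between 603 and 659 in GALNT7 OE libraries, so that the groups overlapped (log2 difference -0.01, SE 0.083, adjusted p = 0.912).

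ZFAS1, which hosts the SNORD12 family, did not pass in either line. It was at 3333, 3226 and 3059.9 in OE control libraries and at 2993, 2939 and 3151 in GALNT7 OE libraries (log2 difference -0.08, SE 0.053, adjusted p = 0.251). With the libraries rescaled to their 75th percentile the difference was -0.18 with an adjusted p of 0.0267, and with quantile normalisation it also passed. Without OE control replicate 1 the limma adjusted p was 0.527. In CWR22Rv1 ZFAS1 was between 815 and 833 in shControl and between 738 and 829.9 in GALNT7 KD libraries (log2 difference -0.07, adjusted p = 0.601). SNHG12, the lowest host per kb of exon, was between 169.8 and 238 in shControl and between 173 and 210.0 in GALNT7 KD libraries, and between 149 and 211 in OE control and between 174 and 193 in GALNT7 OE libraries. Its differences of -0.13 and 0.04 had adjusted p of 0.656 and 0.837.

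**Figure D3:**
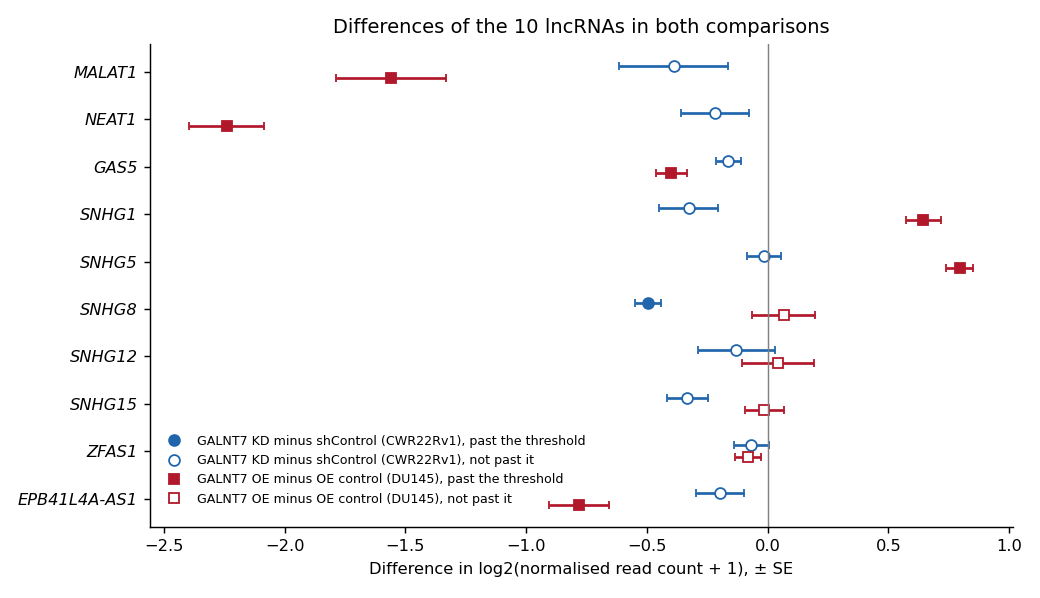
Log2 difference of each lncRNA (horizontal axis, with SE), as circles for GALNT7 KD minus shControl in CWR22Rv1 and squares for GALNT7 OE minus OE control in DU145. Filled symbols passed the test. Circles lie between -0.50 and -0.02, and squares spread from -2.24 for NEAT1 to 0.79 for SNHG5.

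In CWR22Rv1 all 10 lncRNAs had differences below 0, with a median of -0.21, where 50.9% of all genes tested were below 0 and their median was -0.01. The groups did not overlap in 4 of the 10, against 32.5% of all genes tested (16.9% higher and 15.6% lower). These were GAS5, SNHG8, SNHG15 and EPB41L4A-AS1, each lower with GALNT7 KD. SNHG5 was close to 0 and changed sign when a library was left out, so the count of 10 depends on a small value. In DU145 6 of the 10 were below 0, with a median of -0.05. The same 6 that passed the test were those whose groups did not overlap, against 55.3% of all genes tested (28.2% higher and 27.1% lower).

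Levels of the lncRNAs were set side by side as normalised counts per kb of exon, since the genes range in exonic length from 923 bases for SNHG8 to 22767 for NEAT1. In shControl cells GAS5 came first at 2359 ± 126 per kb (SD, n = 3), followed by SNHG8 at 2001 ± 41.1 and SNHG5 at 1403 ± 64.1. SNHG1, ZFAS1 and MALAT1 followed at 508, 367 and 292 per kb, then SNHG15, EPB41L4A-AS1 and NEAT1 at 186, 129.9 and 93.3, with SNHG12 last at 48.5. No neighbours in that order overlapped in their ranges. In GALNT7 KD cells the order was the same, but SNHG8 at 1418 ± 37.2 per kb now overlapped SNHG5 at 1389.6 ± 107.

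In OE control cells ZFAS1 was first at 1429 ± 61.3 per kb, then GAS5 at 1314 ± 49.0 and NEAT1 at 1151 ± 139.9, and neighbours among these 3 overlapped. MALAT1 at 619 and SNHG5 at 581 per kb overlapped too. SNHG1 at 405, SNHG8 at 345, SNHG15 at 176, EPB41L4A-AS1 at 85.3 and SNHG12 at 42.1 per kb followed without overlap. With GALNT7 OE, NEAT1 went from rank 3 to rank 6, at 246 ± 48.1 per kb, and overlapped MALAT1 at 210.3 ± 53.8, which in turn overlapped SNHG15 at 174. SNHG5 reached rank 2 at 1007 ± 39.8 per kb and overlapped GAS5 at 997 ± 73.2. NEAT1 thus ranked per kb among the 3 highest of these lncRNAs in DU145 control cells and second from last in CWR22Rv1 control cells. That difference in level between separately scaled tables was not tested. The length used for NEAT1 was that of its long form, so its rank depends on it. The short isoforms were not separated. Undivided by length, its mean was 2124 in shControl, above SNHG1 at 1910 and SNHG8 at 1847, and 26207 in OE control libraries.

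The snoRNAs annotated inside the hosts were barely present in these libraries. The annotation places 19 snoRNA entries inside the hosts on the same strand, 7 of which were at 0 in all CWR22Rv1 libraries and 7 in all DU145 libraries. It places 0 inside GAS5, so the snoRNAs of GAS5 are not covered here. The highest value of any of them in a library was 11.2 normalised counts in CWR22Rv1 and 11.1 in DU145. With so few reads 2 could be tested in CWR22Rv1 and 1 in DU145, and 0 of them passed. RF00099 and SNORD22, both inside SNHG1, had the highest means, and their log2 differences in CWR22Rv1 were -0.79 and -0.52 (adjusted p = 0.272 and 0.413). They overlap annotated exons of SNHG1 over 125 and 126 bases, so their reads may be those of the host RNA. Mature snoRNAs carry no poly(A) tail.

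Some hosts share a start region with a protein-coding gene on the other strand. SLC3A2, the heavy chain of the CD98 amino acid transporters, starts 188 bases from SNHG1 and was at 2544, 2357 and 2479.6 in OE control libraries and at 4749, 4976 and 4429.5 in GALNT7 OE libraries. It rose by 0.94 (SE 0.059, adjusted p = 4.05e-05), in the same direction as SNHG1. In CWR22Rv1 it was at 3188, 3067 and 3617 in shControl and at 2820.2, 2336 and 2781 in GALNT7 KD libraries. The groups did not overlap, but the difference of -0.32 had an adjusted p of 0.0918.

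ZNFX1, a helicase of antiviral defence, starts 248 bases from ZFAS1 and shares 249 exonic bases with it on the other strand. Since use of strand in counting is not given, reads of this pair may not be fully separated. ZNFX1 was at 3274, 3263 and 3329.9 in OE control libraries and at 2149, 2270.5 and 2057 in GALNT7 OE libraries. That was a fall of 0.61 (SE 0.052, adjusted p = 0.000152) beside -0.08 for ZFAS1. In CWR22Rv1 ZNFX1 had a difference of 0.28 (adjusted p = 0.0797). ZBTB37, a zinc finger protein whose start lies 800 bases from that of GAS5, had differences of -0.30 in CWR22Rv1 and 0.29 in DU145, and neither passed. SYNCRIP, an RNA-binding protein 34956 bases from SNHG5 on the same strand, rose by 1.01 in DU145 (adjusted p = 2.67e-05) and was at 0.01 in CWR22Rv1. TRNAU1AP, which overlaps SNHG12 on the other strand and serves the incorporation of selenocysteine, was higher in both lines, by 0.46 and 0.27. Those calls were lost under 8 and 10 of 17 alternatives. PRSS12, RAB42 and NREP, the nearest to SNHG8, SNHG12 and EPB41L4A-AS1, did not pass where tested, and MYO1G near SNHG15 passed in DU145 at means of 9.65 and 19.9 (log2 difference 0.97, adjusted p = 0.0360), a call lost under 11 of 16 alternatives.

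**Figure D4:**
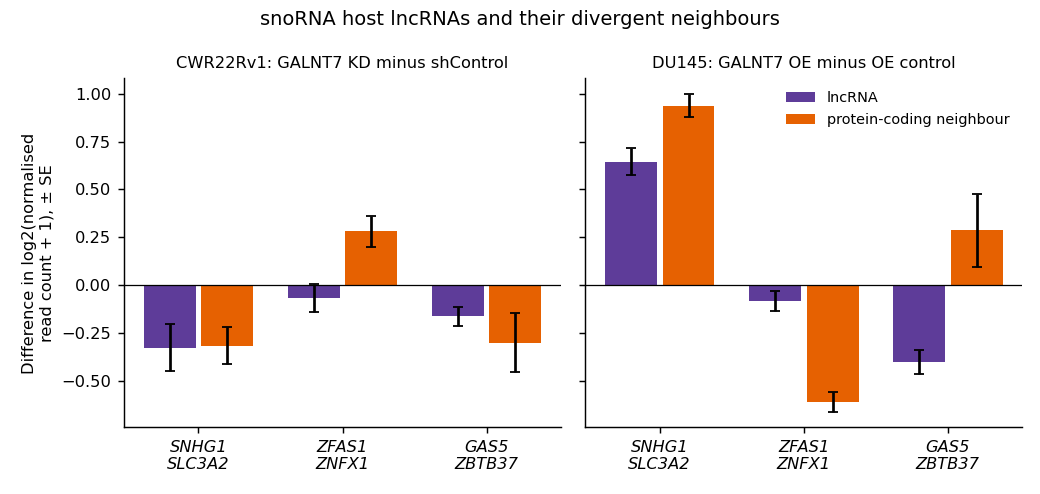
Log2 difference, with SE, of 3 host lncRNAs (purple) and of the protein-coding gene that starts near them on the other strand (orange), with CWR22Rv1 on the left and DU145 on the right. The bars of SNHG1 and SLC3A2 point the same way in both lines, at 0.64 and 0.94 in DU145, while in DU145 ZNFX1 is at -0.61 and ZFAS1 at -0.08.

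The other snoRNA host lncRNAs were described as a list of 20, of which 18 could be tested. In DU145 9 were higher and 2 lower with GALNT7 OE (22.9% and 20.5% of all genes tested), with a median log2 difference of 0.35. At the 75th percentile the counts were 7 and 4. SNHG14 went from 487 ± 36.6 to 1053 ± 269 (1.08), SNHG4 from 173 ± 11.9 to 356 ± 45.6 (1.03) and SNHG21 from 60.1 to 114 (0.92), with adjusted p of 0.00257, 0.000766 and 0.00525. In CWR22Rv1 3 were lower with GALNT7 KD and 0 higher (3.79% and 5.28% of all genes tested), with a median of -0.33. With a library left out between 1 and 3 passed. At an unadjusted p under 0.05, 8 were lower and 1 higher by limma, beside 4675 of 17906 genes in either direction. DESeq2 called 5 lower and 1 higher, beside 2587 of the 31023 genes fitted. The 3 were DANCR, SNHG6 and SNHG17, which fell by 0.55, 0.38 and 0.39. The call of SNHG17 was lost under 9 of 17 alternatives, the replicate block among them. DANCR was also among those that rose in DU145, by 0.61 (adjusted p = 0.00514).

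Protein-coding hosts, among them many ribosomal protein genes, numbered 36, all tested. In DU145 21 were higher and 6 lower with GALNT7 OE (22.9% and 20.5% of all genes tested), with a median of 0.13. DKC1, the pseudouridine synthase, rose by 1.16, HSPA9 by 1.01 and RPSA by 0.91. When the libraries were rescaled to their 75th percentile, which moved the median of all genes to -0.11, the counts were 13 higher and 12 lower and the list's median was 0.03. In CWR22Rv1 1 was higher and 5 were lower with GALNT7 KD (5.28% and 3.79% of all genes tested). RPLP2, a stalk protein of the ribosome, fell by 0.65 (adjusted p = 0.00229) from 10432 ± 74.4 to 6642 ± 506. The calls of the list went from 6 to between 1 and 5 with a library left out (1 without shControl replicate 1 or 2 or GALNT7 KD replicate 1 or 2), to 4 with the replicate block and to 1 without the trend, while that of RPLP2 held under 17 of 17 alternatives.

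The genes of the proteins that join snoRNAs into particles were described with a list of 18. In DU145 16 were higher and 1 lower with GALNT7 OE (22.9% and 20.5% of all genes tested), and 1 did not pass, with a median log2 difference of 0.60. Beside DKC1, which also belongs to this list, GAR1 rose by 1.07 from 226 ± 12.1 to 479 ± 61.2, and RUVBL2, an ATPase of the assembly machinery, rose by 1.08. In CWR22Rv1 1 of the 18 passed with GALNT7 KD, against 9.06% of all genes tested. It was NOP56, which fell by 0.18 (adjusted p = 0.0369). Its call was lost under 10 of 17 alternatives, among them every fit with a library left out. With quantile normalisation or rescaling to the 75th percentile, 13 of the 18 were still higher in DU145.

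Nonsense-mediated decay was described with 22 factors, all tested. In DU145 11 were higher and 2 lower with GALNT7 OE (22.9% and 20.5% of all genes tested), with a median of 0.34. DCP2, a decapping enzyme, rose by 0.95, MAGOHB, of the exon junction complex, by 0.82 and the release factor GSPT1 by 0.70. In CWR22Rv1 3 were lower with GALNT7 KD and 0 higher (3.79% and 5.28% of all genes tested). SMG9, UPF2 and RBM8A fell by 0.54, 0.47 and 0.24. At an unadjusted p under 0.05, 6 were lower and 0 higher by limma, beside 4675 of 17906 genes in either direction. DESeq2 called 4 lower and 0 higher, beside 2587 of the 31023 genes fitted. UPF2, the bridge between the surveillance helicase and the exon junction complex, went from 1083 ± 99.2 to 782 ± 55.2 (adjusted p = 0.0292). Its call was lost when any library of the comparison was left out, and between 0 and 2 of the 22 passed then.

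**Figure D5:**
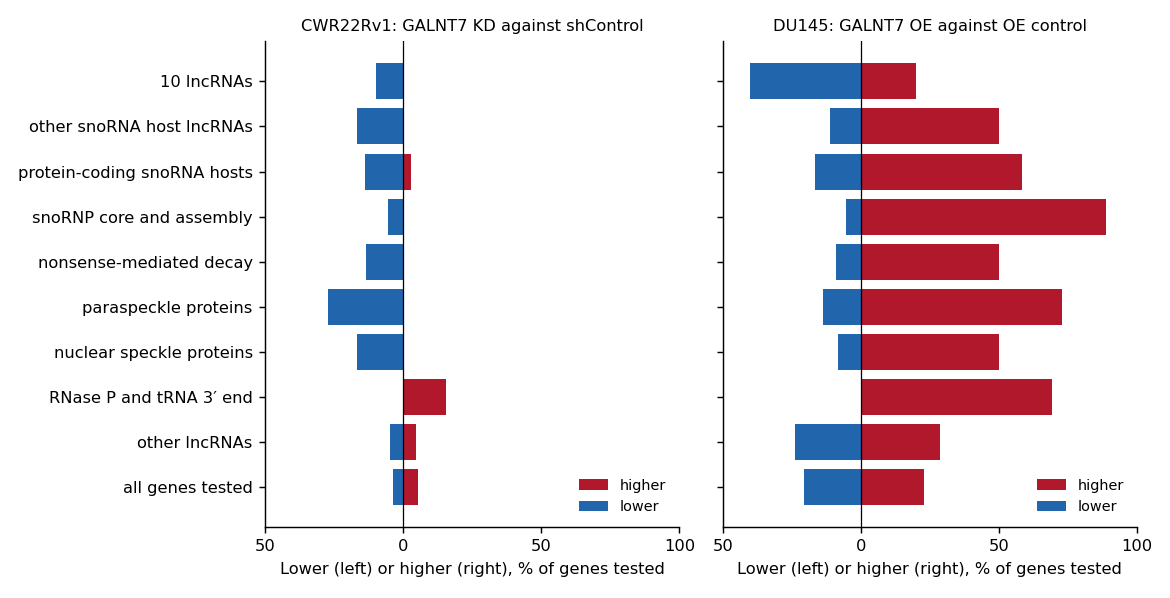
Share of the genes tested in each list that were higher (red, to the right) or lower (blue, to the left), in percent, with GALNT7 KD in CWR22Rv1 on the left and GALNT7 OE in DU145 on the right. The last row is all genes tested, 9.06% and 43.5% of which passed. In DU145 the 10 lncRNAs have 4 lower and 2 higher, and the snoRNP list has 16 of 18 higher.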

How the data were processed

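The authors deposited 1 table of normalised counts (signal) per cell line, made per the labels with Salmon and DESeq2 (R 3.5.3, hg38) from stranded poly(A) libraries. The annotation and settings are not given in the sources used here. All values (100%) were whole multiples of the smallest value of their library within 0.01 reads, so reads were recovered by that step. Values were tested as log2(value + 1) with limma 3.58.1 (R 4.3.3) on genes with a mean of at least 5 over 6 libraries, 3 against 3. A count model was planned only as an alternative (edgeR 4.0.16 and DESeq2 1.42.0 on recovered reads). The fit was tested on simulated data. Members were 10 symbols matched by Ensembl identifier; GENCODE 29 (GRCh38) gave positions and lengths, and 94.4% of the identifiers were in it. Named genes were the members, GALNT7, each member's nearest protein-coding neighbour, RPPH1 and AL355075.4, and up to 3 genes per list and comparison with the largest difference past the threshold and a mean of at least 50; others were chosen after their values were seen, and some genes this rule named are not reported here. The members and lists were chosen with earlier results of these data known. P-values measure the spread between labelled biological replicates. Whether these came from separate transductions is not given in the sources used here, so the p-values may not cover the spread between transductions. For bulk RNA fewer cells and less RNA per cell cannot be told apart.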

Additional observations from a re-analysis of the deposited data

Results flagged for a closer look

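GAS5 and EPB41L4A-AS1 were picked out because raising and lowering GALNT7 went with the same direction of difference in the 2 cell lines, with groups that did not overlap in either. GAS5 had a log2 difference of -0.16 with GALNT7 KD in CWR22Rv1 and of -0.40 with GALNT7 OE in DU145. EPB41L4A-AS1 had differences of -0.20 and -0.78 in the same order. In both, the difference in CWR22Rv1 did not pass the limma test (adjusted p = 0.0967 and 0.261), and whether the effects differ between the lines was not tested, since the tables were scaled separately.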

How the results depend on the processing

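The 6 calls in DU145 (NEAT1, MALAT1, GAS5, EPB41L4A-AS1, SNHG1 and SNHG5) and that of SNHG8 in CWR22Rv1 held under all 18 alternatives. The number of the 10 lncRNAs called in CWR22Rv1 was 3 with DESeq2 (GAS5, SNHG8 and SNHG15) and between 1 and 2 with a library left out: NEAT1 joined SNHG8 without shControl replicate 2, and MALAT1 joined it without GALNT7 KD replicate 2. In DU145 it was between 6 and 7, with ZFAS1 added under the 75th percentile or quantile normalisation. Over all genes, CWR22Rv1 calls went from 1623 to 392 at a threshold of 0.01, 2587 with DESeq2, 996 without a trend and 1002 with the replicate block, and between 539 (without GALNT7 KD replicate 1) and 1336 with a library left out; 555, 848 and 686 were called without shControl replicates 1, 2 and 3, and 1026 without GALNT7 KD replicate 2. DU145 calls went from 8132 to 5303 at 0.01 and were between 6757 and 7629 with a library left out. Rescaling to the 75th percentile moved the share of higher calls in DU145 from 52.8% to 41.6%. Differences that changed sign were small and not called. At the 75th percentile SNHG8 and SNHG12 in DU145 were at -0.034 and -0.055. With a library left out, SNHG5 in CWR22Rv1 ranged from -0.075 (without GALNT7 KD replicate 2) to 0.034 (without GALNT7 KD replicate 3). In DU145 SNHG8 ranged from -0.058 (without OE control replicate 2) to 0.128, SNHG12 from -0.083 (without OE control replicate 1) to 0.165, and SNHG15 from -0.065 to 0.040 (without OE control replicate 2). The cause was not tested.

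Same-numbered replicates shared only a number: the correlations of their deviations were -0.01, 0.07 and -0.01 in CWR22Rv1 and 0.04, 0.04 and 0.02 in DU145. The replicate block left 1 and 6 of the 10 lncRNAs called, and 1002 and 7405 genes in all. The snoRNA entries were at most 11.2 normalised counts, and the part of depth in this was not tested.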

Other observations

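Among 27 other lncRNAs with known roles in prostate or other cancers, 21 could be tested in each line. In DU145, 6 were higher and 5 lower with GALNT7 OE (52.4% of those tested, beside 43.5% of all genes tested), with a median log2 difference of -0.13. HCP5, an lncRNA of the major histocompatibility region, fell by 2.22, from 497 ± 16.4 to 110.1 ± 35.3 (SD, n = 3, limma adjusted p = 0.000448), a size close to that of NEAT1. DLEU2, host of a pair of tumour-suppressor microRNAs, rose by 1.68 from 24.2 to 79.6, and FTX fell by 1.16. NORAD, a cytoplasmic lncRNA that binds Pumilio proteins, was named after its values were seen: it was at a mean of 12249.7 in OE control and 6713 in GALNT7 OE libraries (log2 difference -0.87, adjusted p = 7.00e-06).

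In CWR22Rv1, TUG1 fell by 0.38 with GALNT7 KD (adjusted p = 0.0126) and H19, an imprinted lncRNA, rose by 1.19, from 42.1 to 98.1 (adjusted p = 0.0378). The H19 call was lost under 9 of 17 alternatives, the replicate block among them. H19 was also higher in DU145 with GALNT7 OE, by 2.31, so its difference had the same sign in the 2 lines. Its mean count in DU145 was below 50, and the difference ranged from 1.80 to 2.64 under 17 alternatives. TUG1 had a difference of -0.33 in DU145. The TUG1 call held under 14 of 17 alternatives in CWR22Rv1 and under 8 of 17 in DU145. Whether these effects differ between the lines was not tested.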
